A study of Rattus norvegicus with 10 samples.

Results

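Ketone body use in the fetal heart was followed through 4 genes of the 18025 listed in the deposited table. Bdh1, Oxct1 and Acat1 encode the mitochondrial enzymes that turn 3-hydroxybutyrate into acetyl-CoA, and Slc16a1 encodes the plasma membrane carrier MCT1, through which ketone bodies, lactate and pyruvate enter the cell. The 4 genes were chosen by name for this role, with earlier results of these data known. All of them were expressed well above the filter on low values (a mean of 0.1 FPKM), so none was lost to it. Each library came from heart tissue of wild-type Sprague-Dawley rat fetuses at E19.5. In the HG group, 3-month-old dams had received intraperitoneal streptozotocin, a toxin of pancreatic beta cells, in citric acid buffer on 3 consecutive days after fasting, and their non-fasting glucose was above 16 mM when measured 7 days later. CON dams of the same age were given buffer alone on the same days, and all dams were mated with normoglycemic males. There were 5 libraries in each group. The sources used here give neither the fetal sex nor the litter of a library, so p-values measure the spread between libraries, which may include littermates. CON replicate 3 stood apart by its markers of hepatocytes, and values without it are given with the library composition. Effects of streptozotocin itself and of maternal diabetes cannot be told apart in this design, and the sources differ on whether females were assigned to groups before or after mating.

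Ketone bodies are made in the liver from fatty acids and are burned elsewhere, with the heart among the main users. BDH1 oxidises 3-hydroxybutyrate to acetoacetate, OXCT1 (also called SCOT) transfers CoA from succinyl-CoA to acetoacetate, and ACAT1 splits the resulting acetoacetyl-CoA into acetyl-CoA for the citric acid cycle. The fetal heart relies largely on glucose and lactate, and its capacity for fatty acid and ketone oxidation grows around birth.

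All 4 transcripts were lower in HG hearts than in CON hearts, and the falls differed in size. Bdh1 fell by 55.3% and Oxct1 by 40.6%, whereas Acat1 fell by 19.3% and Slc16a1 by 14.5% (change of the mean FPKM). In each of the 4 genes every HG library lay below every CON library, which was the case for 8.12% of all tested genes. With limma on log2(FPKM + 0.1), each of the 4 passed an adjusted p of 0.05 (Benjamini-Hochberg over the 14542 genes tested), and 11.8% of all genes were called lower in HG (28.4% higher, 40.1% in either direction). Over all genes this split of 1709 lower and 4127 higher became 2551 lower and 2271 higher with median-of-ratios factors, under which all 4 genes kept their lower call. Only Bdh1 also passed the study's fold change threshold, a log2 fold change beyond 1 in size, which 1.07% of genes did in the lower direction and 1.94% in either.

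Bdh1 (NCBI Gene 117099), the enzyme that opens 3-hydroxybutyrate use, was at 8.49, 8.46, 8.56, 7.90 and 9.0 FPKM in CON replicates 1 to 5. In HG replicates 1 to 5 it was at 3.57, 3.71, 4.24, 4.62 and 2.83 FPKM. The lowest CON library was thus 1.71 times the highest HG library. The means were 8.48 ± 0.391 and 3.79 ± 0.682 FPKM (here and below ± is the SD over 5 libraries per group), and the log2 difference was -1.16 (standard error 0.108, 95% interval -1.39 to -0.92, adjusted p = 1.01e-05 from limma). Between 569 and 630 reads per CON library and between 187 and 323 per HG library lay behind these values, the smallest numbers of the 4 genes. The spread of the HG libraries (18% of their mean) was wider than that of the CON libraries (4.61%), and counting error alone would give 6.11% in HG. With a pseudocount of 1 the log2 fold change was -0.995, which no longer passed the fold change threshold.

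Oxct1 (690163), the CoA transferase that commits acetoacetate to oxidation, was the most abundant of the 4 in CON. Its values were 245.5, 237.3, 221.5, 226.3 and 229.1 FPKM in CON and 139.8, 132.9, 132.6, 154.8 and 129.4 FPKM in HG. The groups lay far apart, with the lowest CON library at 1.43 times the highest HG library. The log2 fold change was -0.75 (standard error 0.0497, 95% interval -0.86 to -0.64, adjusted p = 1.09e-06 from limma), from 231.9 ± 9.49 to 137.9 ± 10.2 FPKM. By adjusted p it ranked 19 among all genes with lower means in HG. The reads per library, 12928 to 14708 in CON and 7137 to 9039 in HG, leave a counting error near 1% of the value.

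Acat1 (25014), the mitochondrial thiolase that completes ketone oxidation and also serves isoleucine breakdown, was at 170.4, 163.0, 172.7, 175.0 and 169.1 FPKM in CON. It was at 132.7, 137.0, 142.2, 138.4 and 135.8 FPKM in HG. Its fall was small and its replicates were tight, at 2.68% of the mean in CON and 2.55% in HG. The log2 fold change was -0.31 (standard error 0.0318, 95% interval -0.38 to -0.24, adjusted p = 2.17e-05 from limma).

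Slc16a1 (25027) was at 115.8, 121.7, 121.9, 127.9 and 125.5 FPKM in CON and at 107.5, 106.0, 98.3, 110.0 and 101.9 FPKM in HG. The groups came closest in this gene, since CON replicate 1 was only 1.05 times HG replicate 4. The log2 fold change was -0.23 (standard error 0.0395, 95% interval -0.31 to -0.14, adjusted p = 0.000797 from limma), and 13.4% of the tested genes had a larger fall. Among the HG libraries, replicate 4 held the highest values of Bdh1, Oxct1 and Slc16a1, while the highest value of Acat1 was in replicate 3.

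**Figure D1:**
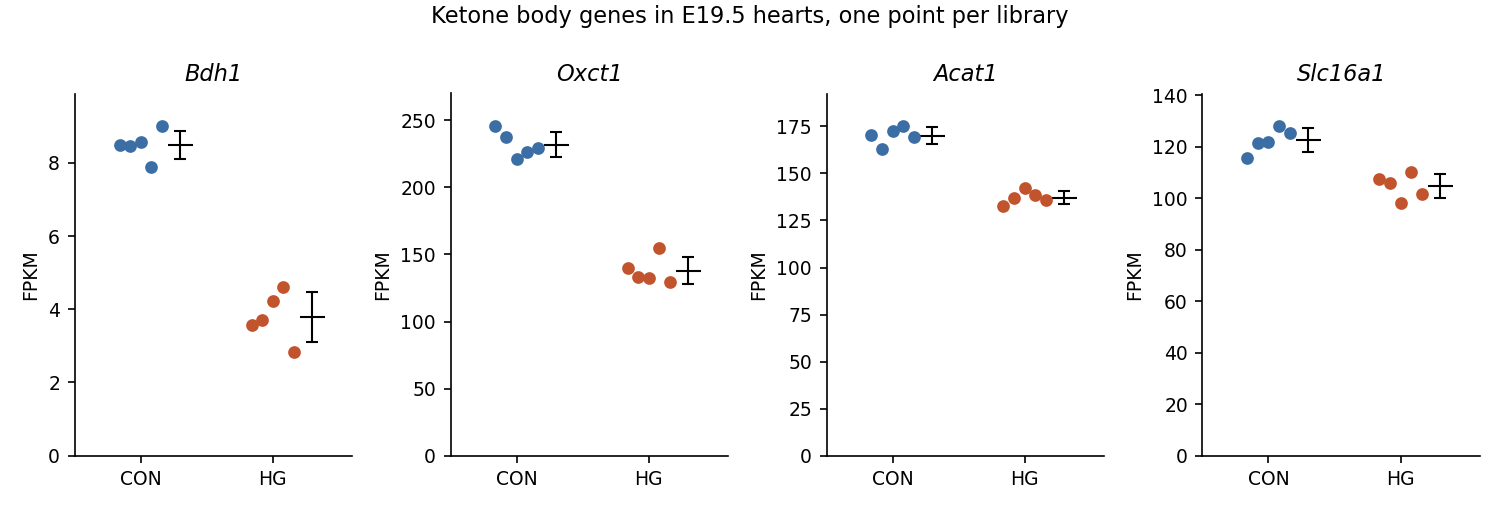
FPKM (vertical axes, from 0) of Bdh1, Oxct1, Acat1 and Slc16a1 in 5 CON and 5 HG libraries, 1 point per library, with the mean and SD drawn beside the points. In all panels the HG points lie below the CON points, by the widest margin in Bdh1 and the narrowest in Slc16a1.

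FPKM are divided by gene length, so that levels of different genes can be set side by side. In CON the order was Oxct1, Acat1, Slc16a1 and Bdh1, with no overlap between neighbours. In HG, Oxct1 (129.4 to 154.8 FPKM) and Acat1 (132.7 to 142.2 FPKM) overlapped and did not differ beyond their spread, while Slc16a1 and Bdh1 stayed below them. The ratio of Oxct1 to Acat1 within a library, computed after these values were seen and therefore not tested, was 1.28 to 1.46 in CON and 0.933 to 1.12 in HG. Bdh1 was by far the scarcest enzyme transcript of the route in both groups. Together the 4 genes held 0.114 ± 0.00216% of the summed FPKM in CON and 0.0846 ± 0.00241% in HG.

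The makeup of the libraries also moved with the groups. Cardiomyocyte markers were abundant in every library, and 7 of 10 were lower in HG with a median log2 fold change of -0.28. Their summed level was 22975 to 23857 FPKM in CON and 18916 to 21632 FPKM in HG. In bulk tissue, fewer cells of a type and less RNA per cell cannot be told apart. When the mean log2 level of these 10 markers was taken off each library, a setting chosen after the data were seen, Bdh1 remained lower with -0.88 (adjusted p = 8.81e-06 from limma) and Oxct1 with -0.48 (adjusted p = 3.21e-06 from limma), where 3.55% of genes were called lower and 69.4% higher. Acat1 was then at -0.03 (adjusted p = 0.447) and Slc16a1 at 0.05 (adjusted p = 0.211), so that no difference between these genes and the markers was detected. Acat1 and Slc16a1 had negative log2 differences under each of the other 24 alternatives.

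The share of FPKM from hemoglobin genes was 3.27 ± 0.873% in CON against 2.24 ± 0.264% in HG (n = 5 each, two-sided exact permutation p = 0.0317). Red cells carry MCT1, and 9 of 13 erythroid markers were lower and 2 higher in HG, with sums of 10580 to 19996 FPKM in CON and 8339 to 11686 FPKM in HG. The 2 higher markers were the globin genes Hbe1 (36.5 to 65.1 FPKM in CON, 140.8 to 393.0 FPKM in HG) and Hbz. Hbz was at 1.49 to 3.28 FPKM in CON and at 30.4 to 80.4 FPKM in HG. The part of red cells in the fall of Slc16a1 was not tested. Hepatocyte markers, of interest because the liver makes ketone bodies, were near 0 in most libraries, but 5 of 9 were lower in HG and their sum reached 85.7 FPKM in CON replicate 3, against 1.53 to 2.92 FPKM in HG. Albumin (Alb) was at 34.9 FPKM in that library and at 0.0552 to 2.93 FPKM in the other CON libraries. Without CON replicate 3 the log2 fold changes were -1.15 for Bdh1, -0.77 for Oxct1, -0.30 for Acat1 and -0.23 for Slc16a1. Endothelial markers, whose cells also use MCT1, summed to 265.8 to 287.6 FPKM in CON and 273.9 to 300.0 FPKM in HG (2 of 7 higher, the others not called). Fibroblast markers went both ways (3 of 7 lower, 2 higher), macrophage markers were 1 lower and 3 higher of 7, and of the neuron and glia markers 2 of 6 were tested and neither was called.

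**Figure D2:**
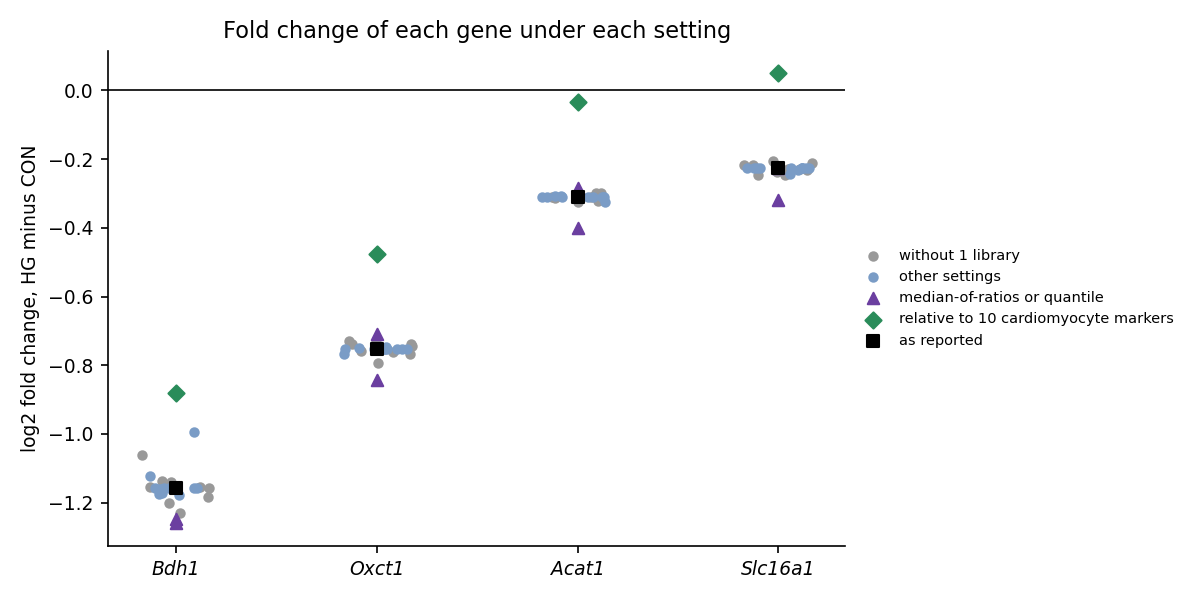
Log2 fold change of HG minus CON (vertical axis) of each member as reported (square) and under each alternative (other symbols). Acat1 and Slc16a1 come near 0 only relative to the cardiomyocyte markers (diamonds), and Bdh1 and Oxct1 stay below 0 under every alternative.

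A ratio of 2 transcripts within a library does not depend on how libraries are scaled. Of these, 5 were tested by exact permutation of the libraries (two-sided). With 5 libraries against 5, p cannot go below 0.00794. Adjustment was over the 5 ratios. Bdh1 fell more than Oxct1, as their ratio went from 0.0366 ± 0.00219 in CON to 0.0274 ± 0.00390 in HG (exact permutation p = 0.00794, adjusted p = 0.00992). All HG libraries (0.0219 to 0.0320) lay below all CON libraries (0.0346 to 0.0393). The log2 difference was -0.41, and -0.25 with a pseudocount of 1 (adjusted p = 0.0298, exact permutation test). Oxct1 also fell relative to Sucla2, a subunit of the succinyl-CoA synthetase that uses the same substrate, with ratios of 2.41 ± 0.183 and 1.68 ± 0.127 (exact permutation p = 0.00794, adjusted p = 0.00992).

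The ratio of Acat1 to Acat2, its cytosolic counterpart at the entry to sterol synthesis, was 8.35 ± 0.358 in CON and 4.54 ± 0.580 in HG (exact permutation p = 0.00794, adjusted p = 0.00992). In Acat1 every HG library lay below every CON library and in Acat2 above, which fixes this p at its floor. Slc16a1 was at 1.55 ± 0.0628 times the level of Slc16a3 in CON and at 1.19 ± 0.0809 times in HG (exact permutation p = 0.00794, adjusted p = 0.00992). Slc16a3 encodes MCT4, a carrier known for lactate export from glycolytic cells. No difference was detected in the ratio of Slc16a1 to Bsg, which encodes basigin, the chaperone that brings MCT1 to the membrane. It was 0.347 to 0.362 in CON and 0.328 to 0.394 in HG, with a difference of 0.01 on the log2 scale (exact permutation p = 0.786, n = 5 each). The HG libraries were spread more widely than the CON libraries, so this does not show that the ratio was the same.

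**Figure D3:**
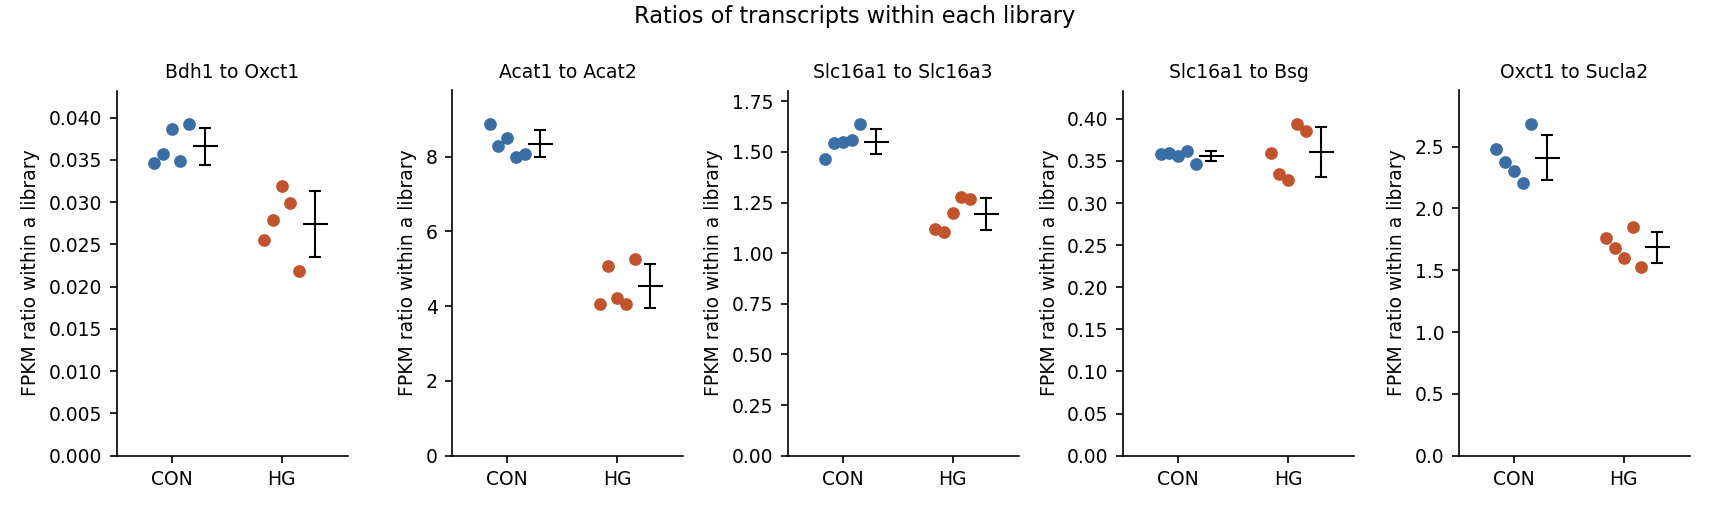
Ratios of FPKM within each library (vertical axes, from 0) for 5 pairs of transcripts in CON and HG, 1 point per library, with the mean and SD. Groups are apart in 4 pairs and overlap in Slc16a1 to Bsg, where the HG points lie on both sides of the CON points.

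All 4 members were lower in HG, though by different amounts, and shared control of them was not tested. The 250 bases before the annotated start of each gene are shown here to let their promoters be compared. They were taken from RefSeq promoter sequences of the GRCr8 build (matched for 4 of 4 genes by NCBI Gene number), not from the mRatBN7.2 build named for the expression values. Both strands were searched for GGGCGG (the GC box), ACGTG (the core of hypoxia response elements) and CACGTG (the E-box, which contains ACGTG), and matches are in capitals.
Bdh1 (chr11:82842637-82842886, minus strand): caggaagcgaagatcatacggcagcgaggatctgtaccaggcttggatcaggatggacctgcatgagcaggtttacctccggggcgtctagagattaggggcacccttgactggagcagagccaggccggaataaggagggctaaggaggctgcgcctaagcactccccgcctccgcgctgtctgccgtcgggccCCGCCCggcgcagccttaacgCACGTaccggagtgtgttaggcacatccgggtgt
Oxct1 (chr2:54963714-54963963, plus strand): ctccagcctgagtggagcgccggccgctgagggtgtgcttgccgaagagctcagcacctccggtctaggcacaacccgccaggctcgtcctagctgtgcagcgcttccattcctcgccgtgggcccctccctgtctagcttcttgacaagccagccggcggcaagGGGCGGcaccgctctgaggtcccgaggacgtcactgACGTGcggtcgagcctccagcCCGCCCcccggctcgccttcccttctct
Acat1 (chr8:62905043-62905292, minus strand): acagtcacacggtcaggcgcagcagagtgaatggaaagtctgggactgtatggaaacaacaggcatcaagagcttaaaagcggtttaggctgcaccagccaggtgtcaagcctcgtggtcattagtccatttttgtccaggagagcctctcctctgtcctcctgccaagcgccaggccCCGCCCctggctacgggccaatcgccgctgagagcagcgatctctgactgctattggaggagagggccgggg
Slc16a1 (chr2:194812410-194812659, plus strand): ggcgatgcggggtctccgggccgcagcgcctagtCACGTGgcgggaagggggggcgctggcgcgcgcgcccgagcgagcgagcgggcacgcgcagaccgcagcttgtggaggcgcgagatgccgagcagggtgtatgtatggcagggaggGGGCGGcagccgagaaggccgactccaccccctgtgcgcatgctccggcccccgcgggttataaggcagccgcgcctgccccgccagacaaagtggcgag
The GC box was present in all 4 windows, against 30.5% of 33469 promoter windows of this length. ACGTG was found in 3 of them (all but Acat1, 16.6% of all windows) and CACGTG only in Slc16a1 (5.59%). The nuclear receptor core motif, AGGTCA, was in none of the 4 and in 14.1% of all windows. The direct repeat of that motif with a spacing of 1 base, the response element of estrogen-related receptors and the cAMP response element were also searched for and were found in none of the 4. These 3 were in only 0.0508%, 0.388% and 1.59% of all windows, so their absence from 4 windows is not unusual. The windows were rich in G and C, from 58.4% in Acat1 to 74.0% in Slc16a1, where the median of all windows was 51.2%. These matches describe letters in a window and not binding.

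The deposited annotation places 11 genes in the KEGG pathway for synthesis and degradation of ketone bodies, of which 10 were tested. The 3 genes called lower in HG were the members Bdh1, Oxct1 and Acat1, and of the other 7 tested genes 3 were called higher and 4 were not called. The median log2 fold change of these 7 was 0.30, against 0.09 over all genes tested. Of all genes tested, 11.8% were called lower and 28.4% higher. With levels set relative to the cardiomyocyte markers these shares were 3.55% and 69.4%. The counts below are to be read against them. Of 5 tested genes listed for synthesis, 1 was called lower (the member Bdh1), 1 was called higher and 3 were not called. Hmgcll1, an extramitochondrial lyase, rose from 2.25 ± 0.319 to 3.45 ± 0.344 FPKM (log2 difference 0.60, adjusted p = 0.000767 from limma). Bdh2, a cytosolic dehydrogenase, was at 7.12 ± 0.697 and 6.12 ± 1.13 FPKM (log2 difference -0.23, adjusted p = 0.133, and -0.32 with adjusted p = 0.0394 by limma after median-of-ratios scaling). Oxct2a, the testis form of SCOT, was listed at or near 0 and fell below the filter.

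Around the SCOT reaction, 5 of 6 tested genes that make or use succinyl-CoA were lower in HG, Oxct1 included (median log2 fold change -0.31), and relative to the cardiomyocyte markers 3 were lower and 1 was higher. Ogdh and Dlst, components of the 2-oxoglutarate dehydrogenase complex that makes succinyl-CoA, fell with log2 fold changes of -0.44 and -0.38. Sucla2 fell from 96.5 ± 6.69 to 81.9 ± 2.56 FPKM (log2 difference -0.23, adjusted p = 0.00225 from limma), and Suclg1, the shared subunit of succinyl-CoA synthetase, had -0.20. Suclg2 was not called at -0.06 (adjusted p = 0.395), but was called lower with median-of-ratios factors (-0.15, adjusted p = 0.0372 from limma). Oxct1 had the largest fall of this group.

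Besides Slc16a1, the 3 other proton-linked carriers were tested. Slc16a3 was between 76.5 and 82.0 FPKM in CON and between 80.3 and 96.1 FPKM in HG. It was called higher in HG at 0.15 on the log2 scale (adjusted p = 0.0360 from limma), a call that was lost under 10 alternatives, including median-of-ratios scaling (log2 difference 0.06, adjusted p = 0.458). Slc16a7 and Slc16a8 were close to the filter, at means of 0.132 and 0.121 FPKM in CON, and were not called. Bsg fell from 344.0 ± 14.7 to 291.8 ± 20.4 FPKM (log2 difference -0.24, adjusted p = 0.00257 from limma), close to the fold change of Slc16a1. Relative to the cardiomyocyte markers Bsg, like Slc16a1, lost its call and changed sign (0.04, adjusted p = 0.535 from limma). Emb, the other chaperone of these carriers, was not called (adjusted p = 0.603). In the rest of the Slc16 family, 1 of 8 tested genes was lower and 3 were higher, against 11.8% and 28.4% of all genes. When set relative to the cardiomyocyte markers, 4 of them were higher, as were 69.4% of all genes. The largest increase was that of the creatine carrier gene Slc16a12, from 14.3 to 18.7 FPKM in CON to 25.8 to 32.4 FPKM in HG (log2 difference 0.82, adjusted p = 1.01e-05 from limma). Slc16a13 rose with 0.45, and Slc16a10, a carrier of aromatic amino acids, fell with -0.38. The sodium-coupled carriers Slc5a8 and Slc5a12 were listed at or near 0 and were not tested.

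MCT1 also carries lactate and pyruvate, and of 5 tested genes that handle them 4 were lower in HG, or 3 lower and 1 higher relative to the cardiomyocyte markers. Mpc1 and Mpc2 form the mitochondrial pyruvate carrier. Mpc1 fell from 112.5 ± 8.23 to 67.0 ± 3.57 FPKM (log2 difference -0.75, adjusted p = 1.68e-06 from limma), and Mpc2 had a log2 fold change of -0.46. Ldhb, the heart-type lactate dehydrogenase subunit, was at 1005, 938.0, 953.7, 938.6 and 933.8 FPKM in CON and at 659.8 to 718.4 FPKM in HG (log2 difference -0.48, adjusted p = 3.39e-06 from limma). Ldha, the muscle-type subunit, was at 877.1 ± 29.9 and 915.5 ± 26.6 FPKM (log2 difference 0.06, adjusted p = 0.207), with a log2 fold change of -0.03 after median-of-ratios scaling and a higher call in HG after quantile normalization. Ldhb exceeded Ldha in every CON library (ratio 1.02 to 1.19) and was below it in every HG library (0.714 to 0.776), a ratio computed after the values were seen and not tested. Ldhd, a D-lactate dehydrogenase, was called lower at -0.22 (adjusted p = 0.0280 from limma), which 6 of the runs without 1 library did not keep.

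Acat1 belongs to a second route as well, the breakdown of isoleucine and leucine. Of 15 tested genes of this route 12 were lower and 1 was higher in HG, the median over the list being -0.36 on the log2 scale. Of the 15, 10 had a more negative log2 difference than Acat1 at -0.31. Relative to the cardiomyocyte markers 6 were lower and 3 higher. Bcat2, the mitochondrial aminotransferase that starts the route, fell from 31.6 ± 1.38 to 21.3 ± 1.26 FPKM (log2 difference -0.57, adjusted p = 5.64e-06 from limma). The branched-chain ketoacid dehydrogenase genes Bckdha, Bckdhb and Dbt had -0.32, -0.57 and -0.36, and Dld, their shared E3 subunit, -0.32. On the leucine branch Ivd, Mccc1 and Mccc2 had -0.55, -0.56 and -0.43, and Auh was not called (-0.05, adjusted p = 0.623). On the isoleucine branch Acadsb, Echs1 and Hsd17b10 had -0.48, -0.38 and -0.25. The gene that rose was Bcat1, the cytosolic aminotransferase, from 8.23 to 11.5 FPKM in CON to 16.0 to 17.0 FPKM in HG (log2 difference 0.74, adjusted p = 2.06e-05 from limma).

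Among 7 tested thiolase genes 4 were lower, namely Acat1, Acaa2 (-0.52) and Hadhb (-0.21) of mitochondrial fatty acid oxidation and Scp2 (-0.16), the last of which was not kept under 8 alternatives. Relative to the cardiomyocyte markers 1 was lower and 2 were higher. Acat2 was higher, from 20.4 ± 1.07 to 30.6 ± 3.89 FPKM (log2 difference 0.58, adjusted p = 0.000156 from limma). It belongs to the cytosolic route to sterols and fatty acids. Of 7 tested genes listed around this route 5 were higher and 2 lower, or 3 higher with median-of-ratios factors. Hmgcs1, the synthase of sterol synthesis, had 0.30. Acly, which makes cytosolic acetyl-CoA from citrate, had 0.42, and Aacs, which activates acetoacetate in the cytosol, had 0.27. The calls lost with median-of-ratios factors were those of Hmgcs1 (adjusted p = 0.0745) and Aacs (adjusted p = 0.0589, both from limma). The 2 lower genes encode acetate-activating enzymes, Acss1, which is mitochondrial and not part of the cytosolic route, with -0.96 and the cytosolic Acss2 with -0.39.

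**Figure D4:**
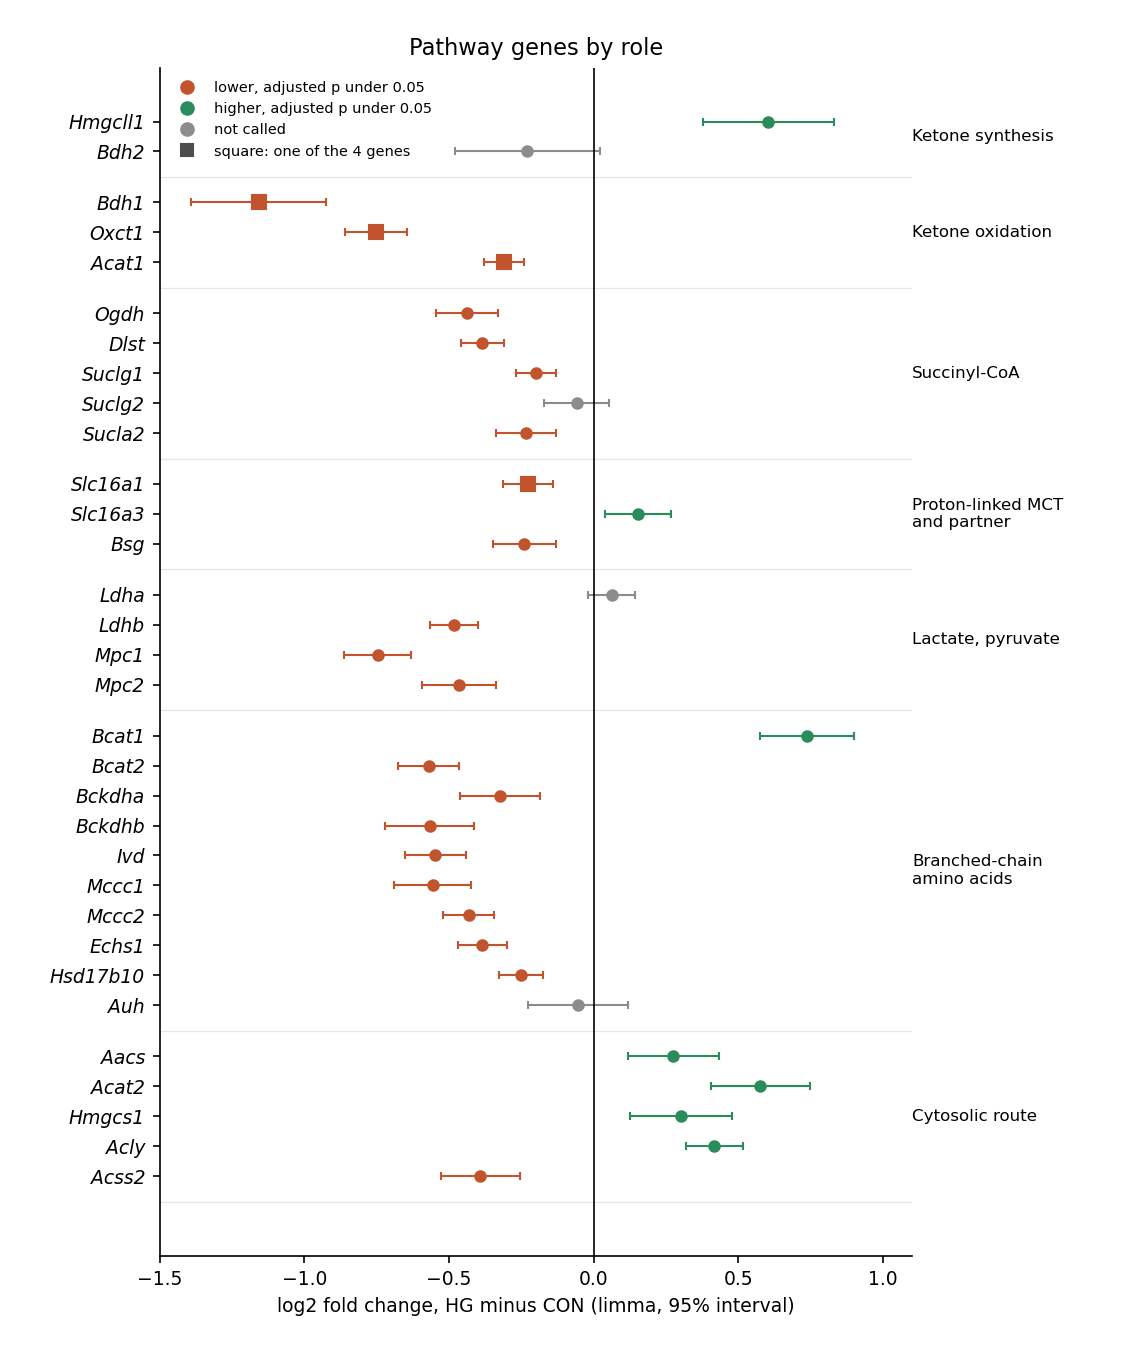
Log2 fold change of HG minus CON with its 95% interval from limma (horizontal axis) for genes around ketone body use, grouped by role, with the 4 members as squares. The ketone oxidation genes lie left of 0, whereas Hmgcll1 and most cytosolic genes lie right of it.

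Of the regulators of oxidative genes, 4 of 10 were lower in HG (11.8% of all genes) and 6 were not called. Taken relative to the cardiomyocyte markers, 2 were lower and 4 higher, against 3.55% and 69.4% of all genes. Ppara, a nuclear receptor for fatty acids that drives genes of fatty acid oxidation and ketogenesis, was at 7.40 to 10.1 FPKM in CON and 4.58 to 5.85 FPKM in HG (log2 difference -0.90, adjusted p = 2.50e-05 from limma). Esrra, an estrogen-related receptor, had -0.30 (adjusted p = 0.000269), and Esrrg -0.01 (adjusted p = 0.910). Pparg fell at a low level, from 0.791 ± 0.229 to 0.341 ± 0.0855 FPKM (adjusted p = 0.00349 from limma). Ppard had -0.20, a call lost under 9 alternatives, and the coactivator gene Ppargc1a had -0.10 (adjusted p = 0.272). With median-of-ratios factors Ppargc1a was called lower at -0.19 (adjusted p = 0.0362 from limma), as it was after quantile normalization (adjusted p = 0.0435). Of the receptors of ketone bodies and short acids, Hcar1 and Ffar2 were tested at means under 0.6 FPKM and not called, and Hcar2 and Ffar3 were below the filter.

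The genes whose pattern was most like that of a member were found by the root mean square difference of log2(FPKM + 0.1), centred on each gene's mean, over the 10 libraries and among 11708 other genes whose mean reached 1 FPKM. This measure includes the difference between the groups, so a near gene has a similar fold change and need not vary with the member within a group. For Oxct1 the nearest was Mpc1 (difference 0.0463 on the log2 scale), followed by the small heat shock protein gene Cryab (0.0521) and the mitochondrial S-adenosylmethionine carrier gene Slc25a26 (0.0524). For Bdh1 they were Eef1a2 (0.135), a translation elongation factor of muscle and neurons, Sdf2l1 (0.147) and the glycosyltransferase gene Galnt16 (0.148). For Acat1 they were Epb41 (0.0344), Fam210a (0.0371) and the cardiac transcription factor gene Gata6 (0.0384). For Slc16a1 they were Smyd1 (0.0397), a muscle methyltransferase, Ankrd54 (0.0413) and Map6 (0.0421).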

How the data were processed

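Total RNA of 10 heart samples had been made into stranded mRNA libraries and sequenced on an Illumina platform. The authors deposited FPKM, reads divided by gene length and library size, with gene annotation. The submitters' processing notes name fastp, HISAT2, HTSeq, R 3.2.0 and the build mRatBN7.2. The study's methods mention pooled RNA of 10 samples, yet the table holds separate values per library. FPKM are relative to the rest of a library, so a change in abundant genes shifts all others. All per-sample columns were used (0 unused).

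Groups came from the sample titles. The 14542 of 18025 genes whose mean reached 0.1 FPKM entered limma 3.58.1 on the scale log2(FPKM + 0.1) (linear model with an intensity trend, no covariate) in R 4.3.3. The study names a count model, and here reads recovered from the FPKM (below) entered voom as an alternative. Genes were called at a Benjamini-Hochberg adjusted p of 0.05, and DEGs also needed an absolute log2 fold change above 1. On such a scale the change of low genes is understated. The scripts were tested on simulated data.

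Whole reads were recovered from the steps between values (tolerance 0.03 reads) for 100% of 17298 genes above 0 in 2 or more libraries. There were 17639829 to 18239924 reads in CON libraries and 16672782 to 19109764 in HG libraries. Results were recomputed with pseudocounts of 1 and 0.01, without a filter or with one at 1 FPKM, median-of-ratios factors, quantile normalization, removal of hemoglobin genes, no trend, array weights, a replicate block, Y chromosome genes as a covariate, voom on recovered reads, an exact permutation test, the ratio of means, each library left out, and, added later, levels relative to cardiomyocyte markers. The 4 genes, the lists and the promoter motifs were chosen with earlier results of these data known. Named were the members, list genes called or central to a role, and for each member the 3 genes nearest in pattern. Some list genes are counted but not reported here by name. Python 3.11.15, numpy 2.4.6, pandas 2.3.3 and matplotlib 3.10.9 were used.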

Additional observations from a re-analysis of the deposited data

Results flagged for a closer look

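Among 144 groups of 5 libraries examined (the tested genes named above, the 5 ratios and 2 measures of composition), 7 had a library whose gap to its nearest neighbour exceeded 0.71 of the range of the group (Dixon's criterion), where chance alone gives about 1 in 20. The 4 members were not among them. For Slc16a8 in HG, replicate 4 was at 0.402 FPKM and the others at 0.0572 to 0.0945 FPKM. For Ldhb in CON, replicate 1 was at 1005 FPKM and the others at 933.8 to 953.7 FPKM. For Acss2 in CON, replicate 4 was at 6.90 FPKM and the others at 7.98 to 8.28 FPKM. For Bcat2 in CON, replicate 4 was at 29.2 FPKM and the others at 31.7 to 32.6 FPKM. For Hsd17b10, CON replicate 1 was at 110.2 FPKM (others 101.3 to 103.7 FPKM) and HG replicate 3 at 91.7 FPKM (others 85.5 to 86.8 FPKM). For Ppara in CON, replicate 5 was at 7.40 FPKM and the others at 9.41 to 10.1 FPKM, still above the highest HG library.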

How the results depend on the processing

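Bdh1 and Oxct1 kept their direction under all 25 alternatives and their call under the 24 that give a test (the log2 ratio of mean FPKM gives none), with log2 fold changes of -1.26 to -0.88 and -0.84 to -0.48. Acat1 and Slc16a1 kept their direction and call under 23 of these 24, the exception being the level relative to the 10 cardiomyocyte markers (-0.0325 and 0.0501). For each gene, these 24 include the exact permutation test, counted by its unadjusted p of 0.00794. That is the smallest p that 5 libraries against 5 allow, and it is reached whenever the groups do not overlap. Leaving out 1 library at a time gave -1.23 to -1.06 for Bdh1, -0.79 to -0.73 for Oxct1, -0.32 to -0.30 for Acat1 and -0.25 to -0.20 for Slc16a1. The numbers in the titles did not pair the libraries (correlations of deviations between same-numbered libraries from -0.126 to 0.108), and with the replicate block 5096 genes were called in place of 5836. Exact sign-flip tests on pairs of equal number, which cannot go below p = 0.0625, gave adjusted p = 0.0781 for the ratios of Bdh1 to Oxct1 (-0.41), Acat1 to Acat2 (-0.88), Slc16a1 to Slc16a3 (-0.38) and Oxct1 to Sucla2 (-0.52, all log2 differences). The log2 difference of the ratio of Slc16a1 to Bsg ranged from -0.0204 to 0.0460 without 1 library, and was negative without HG replicate 4 (-0.0204) and without HG replicate 5 (-0.0127). Over all genes, 4127 were called higher, which became 2271 under median-of-ratios scaling and 2615 under quantile normalization. The 282 DEGs became 64 with a pseudocount of 1, 134 with the filter at 1 FPKM and 427 with voom. Relative to the cardiomyocyte markers 10614 genes were called, 516 lower and 10098 higher, with 492 DEGs, and of the pathway lists 17 genes were lower and 22 higher in place of 34 and 11. The cause was not tested. At 187 to 323 reads per HG library, Bdh1 is the member whose size of change is least precise.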
